A study of Caenorhabditis elegans with 6 samples.

Results

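The genes described here are 10 heat shock genes of the nematode Caenorhabditis elegans, chosen by name: hsp-16.1, hsp-16.2, hsp-16.41, hsp-16.48, hsp-70, F44E5.4, F44E5.5, hsp-12.3, hsp-12.6 and hsp-17. In the Ensembl annotation hsp-16.1 and hsp-16.48 each name a pair of gene records, so that the 10 names gave 12 genes among the 46748 of the count table. RefSeq, on the same assembly (WBcel235), calls the second copies hsp-16.11 (WBGene00002017) and hsp-16.49 (WBGene00002020), and these names are used below. All 12 genes passed the filter on low counts, as did 14354 genes in all.

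The 6 libraries hold total RNA of whole worms, 3 from strain N2 (wild type) and 3 from strain VDL786, whose genotype crh-1(syb385) removes the circular RNA of crh-1. Both groups were adults of day 1, raised at 20 °C on OP50 bacteria, moved at the L4 larval stage to 25 µM FUdR, which blocks DNA synthesis and so the growth of progeny, and caught on a 30 µm mesh. Each genotype is represented by 1 strain, the labels call the replicates independent, and both genotypes carry the replicate numbers 1 to 3. The labels name no heat treatment of either group.

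Many small heat shock proteins bind unfolding proteins without using ATP and keep them from aggregating. HSP70 chaperones then refold the bound proteins in cycles of ATP hydrolysis. In C. elegans the hsp-16 genes and the inducible HSP70 genes hsp-70, F44E5.4 and F44E5.5 are near silent in unstressed worms and are switched on by the heat shock factor HSF-1 after heat or proteotoxic stress. The hsp-12 genes encode shorter small heat shock proteins, and hsp-12.6 is known as a target of the FOXO factor DAF-16.

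Libraries held 38974777 to 47444165 counts, of which 14188050 to 35075781 fell in protein-coding genes. Knockout replicate 2 stood apart, with 58.5% of its counts in rRNA genes against 22.9% to 36.4% in the other 5 libraries, and with the lowest protein-coding total. Levels are given as CPM, which are counts scaled to a common library size by TMM factors, and comparisons between genes as CPM per kb of exon. The gene crh-1 itself had 20.6, 18.7 and 23.9 CPM in wild-type replicates 1 to 3 and 17.9, 17.6 and 23.9 CPM in the knockout. Its count pools linear and circular transcripts and so checks no label. Markers of intestine, body wall muscle, hypodermis, neurons, germline, sperm and embryo were all present in these whole-worm libraries, and med-1, an embryonic gene, was the only marker listed at 0 in any library.

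The first question was how the level of each gene varied over the 6 libraries. In both genotypes the library numbered 2 held by far the highest level of each of the 6 hsp-16 genes and of the 3 inducible HSP70 genes. The difference between replicate numbers was many times larger than that between genotypes. The 3 remaining genes, hsp-12.3, hsp-12.6 and hsp-17, did not share this pattern and were highest in the libraries numbered 1. In whole-worm RNA, a change in the number of expressing cells and a change in RNA per cell cannot be told apart.

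The hsp-16 genes lie on chromosome V in divergent pairs. The genes hsp-16.2 (V, 1804334 to 1804957, minus strand) and hsp-16.41 (V, 1805178 to 1805875, plus strand) are transcribed away from each other with 220 bases between them. Wild-type replicates 1, 2 and 3 had 0.619, 6.52 and 0.350 CPM of hsp-16.2, and the knockout replicates had 0.424, 8.28 and 0.263 CPM. For hsp-16.41 the values were 0.928, 8.43 and 0.163 CPM in the wild-type libraries and 0.847, 21.2 and 0.413 CPM in the knockout. Knockout replicate 2 thus held the highest hsp-16.41 level of all libraries, and the genotypes overlapped in both genes. Replicate 2 exceeded the pooled level of replicates 1 and 3 by 13.4-fold for hsp-16.2 in wild type (95% counting interval 9.69 to 18.8) and by 24.5-fold in the knockout (16.96 to 36.3). For hsp-16.41 these ratios were 15.2 (11.2 to 20.8) and 34.4 (26.4 to 45.6). The intervals here and below are exact and cover counting error only.

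A second cluster on V holds an inverted duplication, with hsp-16.1 (V, 9087293 to 9087782, minus strand) facing away from hsp-16.48 (V, 9088131 to 9088617, plus strand), and hsp-16.49 (V, 9089280 to 9089766, minus strand) from hsp-16.11 (V, 9090077 to 9090604, plus strand). The copies are near-identical, and reads that matched more than 1 place were left out of the counts, so their levels are underestimates by an unknown amount. Wild-type replicates 1 to 3 had 0.818, 3.88 and 0.233 CPM of hsp-16.1, and knockout replicates had 1.02, 4.92 and 0.169 CPM. For its copy hsp-16.11 the values were 0.332, 1.53 and 0.0233 CPM in the wild-type libraries and 0.318, 2.30 and 0.113 CPM in the knockout. Both copies followed the same order, replicate 2 over 1 over 3, in each genotype. The counts of hsp-16.48 gave 0.530, 1.93 and 0.0233 CPM in the wild-type libraries and 0.339, 3.61 and 0.0939 CPM in the knockout. Those of hsp-16.49 gave 1.33, 4.19 and 0.163 CPM and 1.04, 8.04 and 0.244 CPM. Wild-type replicate 3 had a single read pair of hsp-16.11 and of hsp-16.48, so that the low end of these genes rests on very few reads.

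The HSP70 genes showed the same order at other places in the genome. The gene hsp-70 (I, 9320325 to 9322519, minus strand) lies inside uggt-2, which is transcribed from the other strand, and the authors counted by strand. It had 0.663, 8.78 and 0.280 CPM in wild-type replicates 1 to 3 and 0.762, 10.4 and 0.263 CPM in the knockout. Replicate 2 was 18.4-fold above the pooled replicates 1 and 3 in wild type (13.4 to 25.96) and 20.9-fold in the knockout (15.4 to 29.0). By the smaller of its ratios hsp-70 stood at place 4 of the 14354 tested genes in this measure. The divergent neighbours F44E5.4 (II, 11757107 to 11759311, minus strand) and F44E5.5 (II, 11759662 to 11761861, plus strand) are close copies of each other, with 350 bases between them. F44E5.4 had 1.90, 14.2 and 0.420 CPM in the wild-type libraries and 1.16, 11.5 and 0.732 CPM in the knockout. F44E5.5 had 1.08, 7.69 and 0.396 CPM in the wild-type libraries and 0.889, 6.85 and 0.526 CPM in the knockout. On the TMM scale these 2 genes differed from the other inducible genes in that wild-type replicate 2, not knockout replicate 2, was the highest library. This contrast depends on the scaling of knockout replicate 2, whose TMM factor was 0.626. The raw counts of hsp-70 were also higher in wild-type replicate 2 (419 of 42116982) than in knockout replicate 2 (254 of 38974777).

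**Figure D1:**
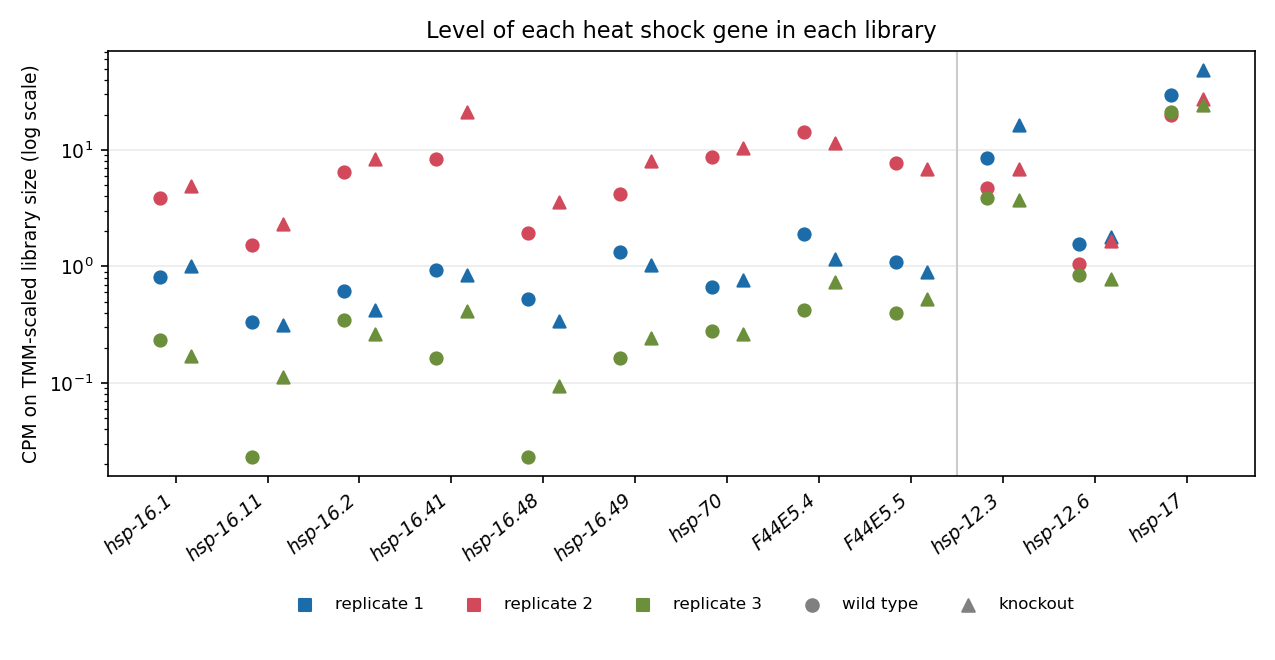
CPM (log axis) of the 12 genes in each library, with circles for wild type, triangles for knockout and colour for the replicate number. In the 9 genes left of the line, both libraries numbered 2 lie above the other 4, while hsp-12.3, hsp-12.6 and hsp-17 are highest in the libraries numbered 1.

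Summed over the 6 hsp-16 genes, the level was 4.55, 26.5 and 0.956 CPM in wild-type replicates 1 to 3 and 3.98, 48.4 and 1.30 CPM in the knockout. Summed over the 3 HSP70 genes it was 3.65, 30.7 and 1.095 CPM and 2.82, 28.8 and 1.52 CPM. The libraries numbered 1 were in turn above those numbered 3, by 4.76-fold in wild type and 3.07-fold in the knockout for the hsp-16 sum, and by 3.33-fold and 1.85-fold for the HSP70 sum.

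The libraries numbered 2 were the highest of both genotypes in 9 of the 12 genes and in 2249 of all 14354 tested genes (15.7%). The order 2 over 1 over 3 in both genotypes was found in 9 of the 12 genes and in 1295 of all tested genes (9.02%). Replicate 2 was at least 4-fold above the pooled replicates 1 and 3 in both genotypes in the same 9 genes and in 151 of all tested genes (1.05%), a threshold chosen after the values were seen. Over the 9 genes the ratio ran from 5.52 to 18.4 in wild type and from 8.68 to 34.4 in the knockout. On library totals without scaling factors the knockout ratios were smaller, from 4.97 to 19.7, and those of wild type ran from 5.75 to 19.2. No gene at all reached 4-fold for replicate 3, and 50 did for replicate 1, with none of the 12 among them. These counts describe the libraries and were not tested, since the genes were chosen with this pattern known.

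**Figure D2:**
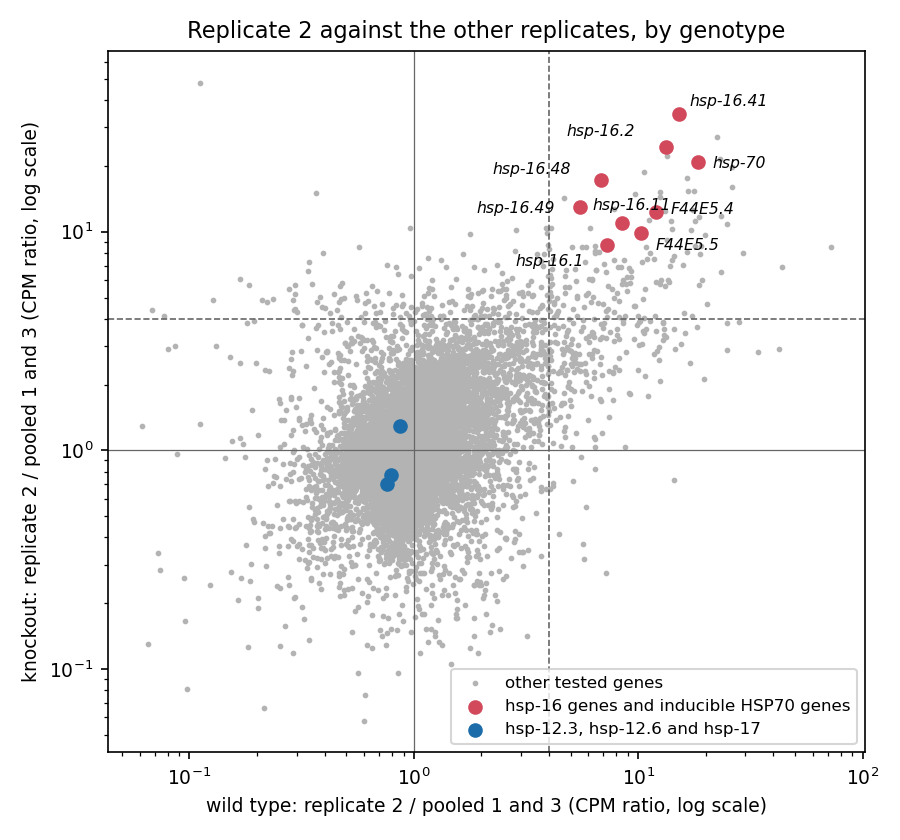
Ratio of replicate 2 to the pooled replicates 1 and 3 in wild type (x) and knockout (y), both on log axes, for 14311 tested genes with a ratio above 0 in both genotypes. Dashed lines mark 4-fold; the 9 hsp-16 and HSP70 genes lie past both, and the other 3 genes lie near 1.

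Some marker levels also differed in the libraries numbered 2, not all of them alike between the genotypes. The 6 intestine markers summed to 8011 CPM in wild-type replicate 2, against 12513 and 13232 CPM in wild-type replicates 1 and 3. In knockout replicate 2 they summed to 12836 CPM, beside 12734 and 11891 CPM in knockout replicates 1 and 3. The 6 embryo markers summed to 29.3 CPM in wild-type replicate 2 and 20.9 CPM in knockout replicate 2, against 1.63 to 2.74 CPM in the other wild-type libraries and 2.52 to 4.43 CPM in the other knockout libraries. Of these markers 3 passed the filter. Among them pes-10 had 5.97 and 3.16 CPM in the libraries numbered 2 and at most 1.03 CPM elsewhere, sdz-28 had 21.8 and 16.7 CPM and at most 2.82 CPM elsewhere, and end-3 was at 0.148 to 0.451 CPM throughout. The gene med-1 was at 0 in 4 of 6 libraries, with 0.084 and 0.041 CPM in wild-type and knockout replicate 2. For tbx-37 the libraries numbered 2 had 0.252 and 0.451 CPM, against at most 0.113 CPM elsewhere. Wild-type replicates 1 to 3 had 0.066, 0.859 and 0.093 CPM of end-1, and the knockout replicates had 0.042, 0.123 and 0.131 CPM. These last genes were under the filter, at very low levels. The 5 body wall muscle markers summed to 959 and 1727 CPM in the libraries numbered 2 and to 497 to 848 CPM in the others, but not all markers followed the sum. In wild type the ratio of replicate 2 to the pooled others was 2.08 for unc-54 (myosin heavy chain), 1.01 for tni-3 (troponin I) and 0.825 for act-4 (actin). In the knockout these ratios were 3.77, 1.71 and 1.80, and 1.71 was the lowest of the 5 muscle markers. Of the 5, 3 were highest in the libraries numbered 2 of both genotypes. The part of embryos, of muscle and of the high rRNA share of knockout replicate 2 in the heat shock gene levels was not tested. No label says what libraries of 1 number share.

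Genes beside the inducible loci were read in the same way. Within 5000 bases of the 9 genes, 7 other genes were tested, and 0 of them reached 4-fold in both genotypes, a count that says little beside the 1.05% of all tested genes that did. Their ratios of replicate 2 to the pooled others ran from 0.289 to 5.08 in wild type, with a median of 0.888, and from 0.985 to 3.58 in the knockout, with a median of 2.64. The highest wild-type ratio belonged to the pseudogene WBGene00009690, which stood at 2.64 in the knockout. For uggt-2, the gene around hsp-70, the ratios were 1.82 in wild type and 2.11 in the knockout.

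The 3 genes outside the pattern had their highest levels elsewhere. The small heat shock gene hsp-17 (V, 8384799 to 8385929, minus strand) had 29.8, 20.1 and 20.98 CPM in wild-type replicates 1 to 3 and 48.5, 27.5 and 24.1 CPM in the knockout. The genes hsp-12.3 and hsp-12.6 lie in tandem on IV (9444791 to 9445507 and 9446229 to 9447228, both minus strand). For hsp-12.3 the values were 8.46, 4.72 and 3.85 CPM in the wild-type libraries and 16.43, 6.81 and 3.72 CPM in the knockout. For hsp-12.6 they were 1.57, 1.05 and 0.839 CPM and 1.80, 1.64 and 0.788 CPM. In each of the 3 genes the library numbered 1 was the highest of both genotypes, an order shared by 2660 of all tested genes (18.5%). Their ratios of replicate 2 to the pooled others were 0.759 to 0.863 in wild type and 0.702 to 1.30 in the knockout.

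Per length, hsp-17 was the most abundant of the 12 genes in every library, with a median of 44.3 CPM per kb and a range of 34.5 to 83.2. The next was hsp-12.3 at a median of 11.9 CPM per kb (7.66 to 33.9), below hsp-17 in 6 of 6 libraries with ranges that did not overlap. It was followed by hsp-12.6 at 3.60 CPM per kb (2.17 to 4.95), again with no overlap. From there down the ranges overlapped between all neighbours in the order: hsp-16.49 (2.74), hsp-16.1 (2.09), hsp-16.41 (1.52), hsp-16.48 (1.01), hsp-16.2 (0.880), F44E5.4 (0.731), hsp-16.11 (0.682), F44E5.5 (0.478) and hsp-70 (0.354), all as median CPM per kb. Reads that matched several places were left out, so the levels of the near-identical hsp-16 copies are underestimates and their places in this order are uncertain. How many such reads the close copies F44E5.4 and F44E5.5 lost was not tested. The order also changed with the library. In knockout replicate 2, hsp-16.41 reached 36.3 CPM per kb, below only hsp-17 at 47.1. In wild-type replicate 2 hsp-12.6 was the lowest of the 12.

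The second question was whether the genes differ between the genotypes. In none of the 12 did the knockout and wild-type libraries separate, while over all tested genes 1.72% lay entirely higher and 1.56% entirely lower in the knockout. With edgeR's quasi-likelihood test over all genes, 0 of the 12 were called at an adjusted p of 0.05, and 0 of 14354 genes were called (0%). An unadjusted p under 0.05 was found for 0 of the 12 genes and for 141 of all genes (0.982%). DESeq2 called 0 of the 12 genes and 31 of 16622 genes (0.186%); it gave no adjusted p for hsp-16.2, hsp-16.41 and hsp-70. As the members were chosen with results of these data known, these fits describe the genes and are not offered as independent tests.

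The fold changes of the 9 inducible genes had wide errors. Expressed as knockout over wild type on the log2 scale, hsp-16.41 was at 1.23 (SE 1.53), hsp-16.49 at 0.69 (SE 1.23) and hsp-16.48 at 0.64 (SE 1.35). The values were 0.46 (SE 1.25) for hsp-16.11, 0.28 (SE 1.16) for hsp-16.1, 0.23 (SE 1.36) for hsp-16.2 and 0.21 (SE 1.42) for hsp-70. F44E5.5 and F44E5.4 were at -0.17 (SE 1.15) and -0.32 (SE 1.258). For hsp-70 the 95% interval of the fold ran from 0.124 to 10.9 when the pairing by replicate number was not used. The biological coefficient of variation of the 9 genes lay between 0.929 and 1.16, against a median of 0.366 over all tested genes.

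The remaining genes had smaller errors. The log2 fold change was 0.50 (SE 0.33) for hsp-17, 0.66 (SE 0.54) for hsp-12.3 and 0.28 (SE 0.45) for hsp-12.6. Means were 23.6 ± 5.37 CPM in the wild-type libraries and 33.4 ± 13.2 CPM in the knockout for hsp-17 (SD, n = 3). For hsp-12.3 they were 5.68 ± 2.45 and 8.99 ± 6.63 CPM, and for hsp-12.6 1.15 ± 0.376 and 1.41 ± 0.544 CPM (SD, n = 3). The median log2 fold change over the 12 genes was 0.37, with 10 above 0 and 2 below. Over all tested genes it was 0.02, with 7507 above 0 and 6847 below. Without knockout replicate 2, 3 of the 12 genes were above 0 and 9 below, and without wild-type replicate 2 all 12 were above 0.

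For each of the 9 inducible genes the direction changed under at least 1 alternative. For hsp-17 the log2 fold change was above 0 under every alternative run, from 0.13 to 0.78 with 1 library left out and at 0.29 on library totals. For hsp-12.6 it was above 0 with each library left out and at -0.0012 on library totals, and for hsp-12.3 it was below 0 only without knockout replicate 1, at -0.11. On library totals alone, 3 of the 12 genes were above 0 and 9 below, while the median of all genes moved to -0.21. Leaving out knockout replicate 2 turned hsp-16.2 to -2.89 and hsp-70 to -2.68, and leaving out wild-type replicate 2 gave 2.60 and 2.99. Without both libraries numbered 2, hsp-16.41 was at 0.20, while hsp-16.2, hsp-16.48 and hsp-16.49 were below 0, at -0.50, -0.38 and -0.23.

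Taking the replicate number as a block removed most of this spread. The biological coefficient of variation of the 9 inducible genes was then 0.243 to 0.343, against a median of 0.234 over all genes, since the block takes out what same-numbered libraries have in common. With the block, hsp-16.41 was at 0.83 (SE 0.34; edgeR adjusted p = 0.771) and hsp-17 at 0.45 (SE 0.19; edgeR adjusted p = 0.771). These 2 were the genes of the 12 with an unadjusted p under 0.05, beside 4.77% of all genes. The block left hsp-70 at 0.14 (SE 0.28) and F44E5.4 at -0.12 (SE 0.32), and it moved hsp-16.2 to -0.15 (SE 0.31). None of the 12 was called with the block, beside 0.00697% of all genes. For hsp-70 the blocked interval ran from -0.47 to 0.76 on the log2 scale, far narrower than without the block.

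**Figure D3:**
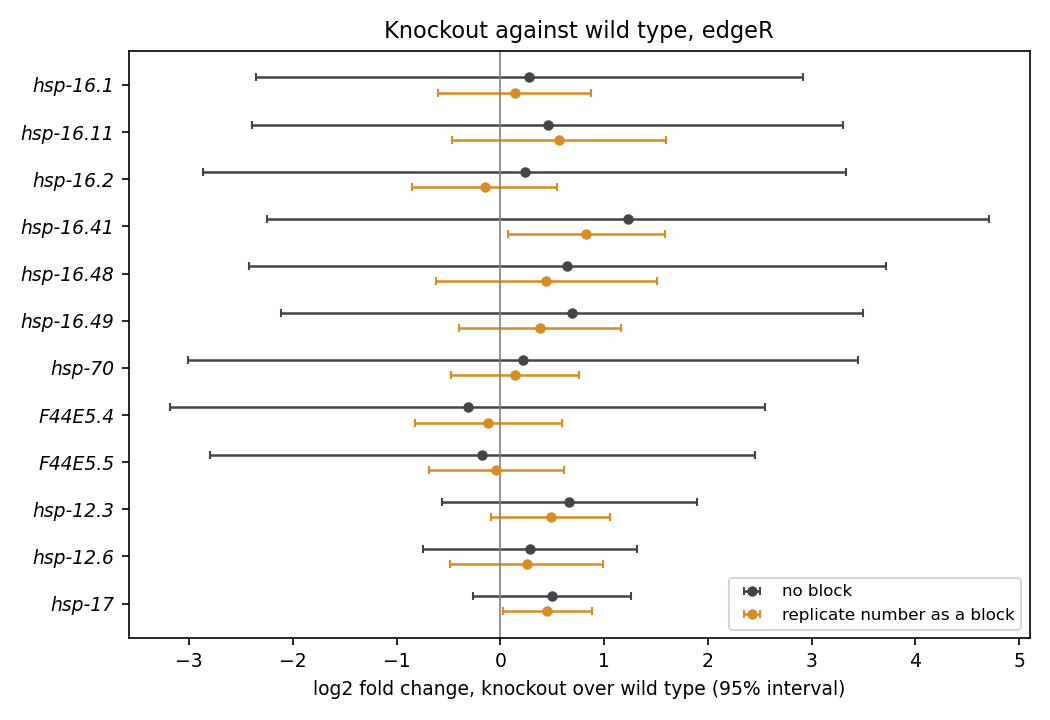
Log2 fold change, knockout over wild type, with 95% intervals from edgeR, without (dark grey) and with (orange) the replicate number as a block. The intervals of the 9 inducible genes shrink under the block, and those of hsp-16.41 and hsp-17 then lie just above 0 before adjustment for all genes.

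Within the pairs of libraries with the same number, the genotypes differed little beside the differences between numbers. In the replicate 1 pair 2 of the 9 inducible genes were higher in the knockout, and the ratios, knockout over wild type, ran from 0.613 for F44E5.4 to 1.24 for hsp-16.1. In the replicate 2 pair all 6 hsp-16 genes were higher in the knockout, from 1.27-fold for hsp-16.1 to 2.52-fold for hsp-16.41 (2.21 to 2.88), and each counting interval lay above 1, that of hsp-16.1 only just. The HSP70 genes in that pair stood at 1.19 (1.01 to 1.39) for hsp-70, 0.890 (0.737 to 1.07) for F44E5.5 and 0.811 (0.703 to 0.933) for F44E5.4. These ratios depend on how knockout replicate 2 is scaled. The summed hsp-16 level of that pair was 1.83-fold higher in the knockout with TMM, 1.73-fold per protein-coding count and 1.01-fold on library totals, and the HSP70 sum was at 0.938, 0.886 and 0.518. In the replicate 3 pair 6 of the 9 genes were higher in the knockout, and hsp-16.41 at 2.53 (1.04 to 7.02) was the only one whose counting interval excluded 1. With a single wild-type read pair, hsp-16.11 had a ratio of 4.83 in that pair, with an interval of 0.586 to 222.

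One of the 12 genes, hsp-17, was higher in the knockout in 3 of 3 pairs, as were 11.2% of all tested genes. The ratios were 1.63 (1.52 to 1.74), 1.37 (1.24 to 1.51) and 1.15 (1.06 to 1.25) in pairs 1 to 3, and on library totals the second was 0.755. None was lower in 3 of 3 pairs, against 10.4% of all genes. For hsp-12.3 the ratios were 1.94 (1.72 to 2.20), 1.44 (1.17 to 1.77) and 0.966 (0.782 to 1.196).

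**Figure D4:**
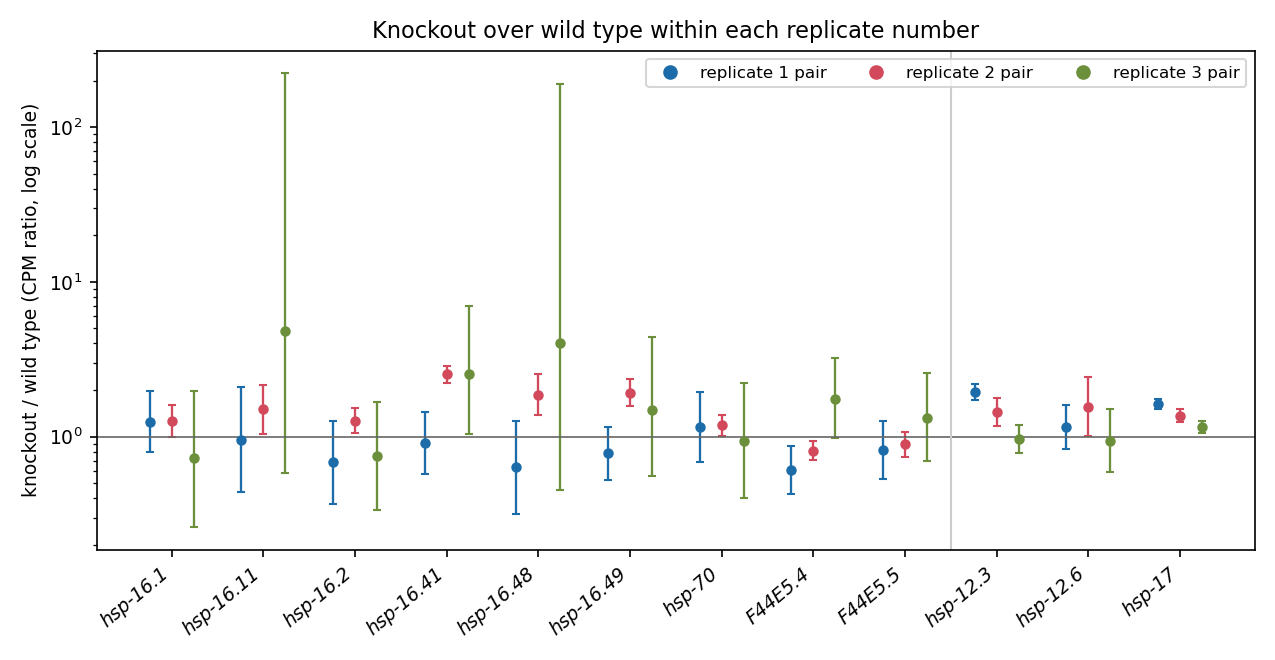
Knockout over wild type (CPM ratio, log axis) of each gene within each pair of libraries with the same replicate number, with exact 95% counting intervals. In the replicate 2 pair the 6 hsp-16 genes lie above 1, while F44E5.4 lies below.

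How counts split between related genes does not depend on library scaling. Of the reads of the divergent pair hsp-16.2 and hsp-16.41, hsp-16.2 held 40%, 43.6% and 68.2% over the wild-type libraries 1 to 3, beside 33.3%, 28.1% and 38.9% over those of the knockout. The share was lower in the knockout in 3 of 3 pairs, and the groups did not overlap, though the lowest wild-type and the highest knockout share, 40% and 38.9%, were close. In replicate 2, where both genes are deep, the exact binomial intervals were 39.9% to 47.3% and 24.8% to 31.5%. The intervals overlapped in replicate 1 (28.5% to 52.4% and 21.7% to 46.7%) and in replicate 3 (45.1% to 86.1% and 23.1% to 56.5%). Among 6 such pairs of genes this was the only one whose replicate 2 intervals did not overlap between genotypes, and it was singled out after the values were seen, so that nothing is read from its separation. The design of 3 against 3 cannot bring an exact permutation test below 0.10, and none was run.

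The split between the duplicated copies varied over the libraries, with few counts outside the libraries numbered 2. Of the counts of hsp-16.1 and hsp-16.11, hsp-16.1 held 71.7% (65.8% to 77.1%) in wild-type replicate 2 and 68.2% (60.8% to 75.0%) in knockout replicate 2, and from 60% in knockout replicate 3 to 90.9% in wild-type replicate 3 over all 6 libraries. Of hsp-16.49 and hsp-16.48, hsp-16.49 held 68.5% and 69.0% in the libraries numbered 2 and up to 87.5%, in wild-type replicate 3. F44E5.4 held 64.9% (61.9% to 67.8%) and 62.7% (58.1% to 67.2%) of its pair in the libraries numbered 2, and 51.4% to 63.7% in the others. Over all libraries hsp-16.1 had 2.68 times the counts per kb of hsp-16.11, hsp-16.49 had 2.32 times those of hsp-16.48 and F44E5.4 had 1.70 times those of F44E5.5. How far these splits come from reads lost to multiple matches was not tested.

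**Figure D5:**
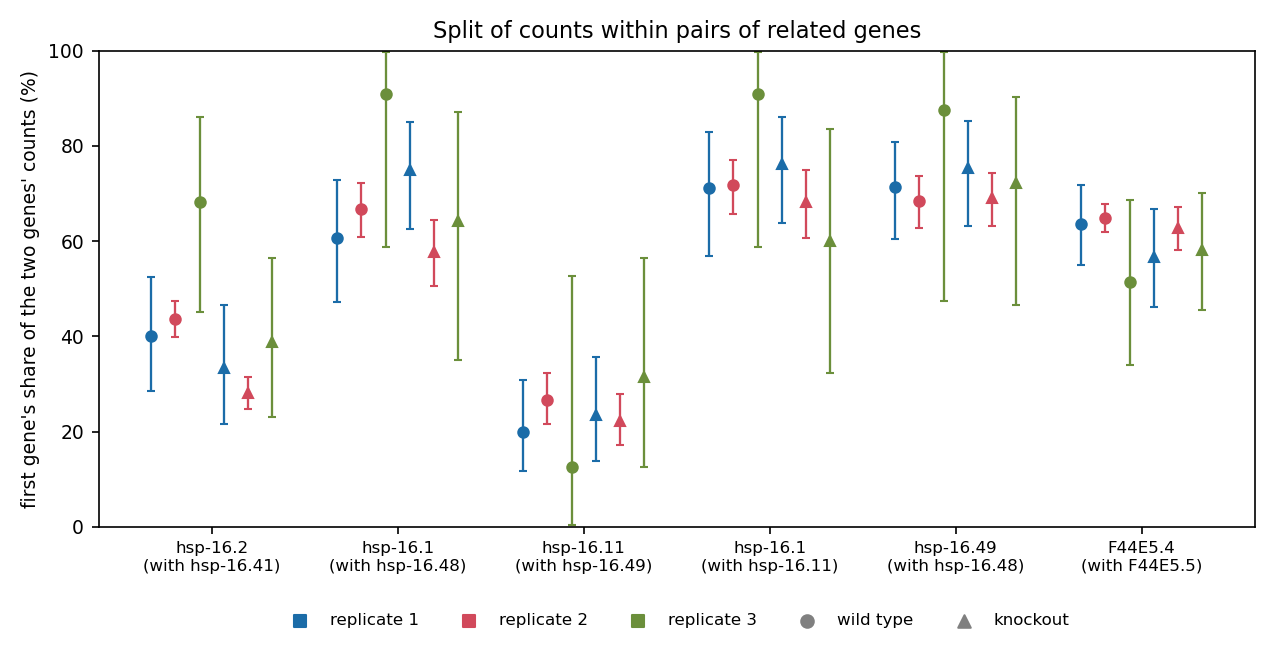
Share of the first gene in the summed counts of 2 related genes, per library, with exact binomial 95% intervals. The hsp-16.2 share is lower in the knockout (triangles) than in wild type (circles) for each replicate number, while the other pairs overlap in replicate 2.

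Other chaperone genes were read from 4 lists. HSF-1 itself, the regulator of the inducible genes, had 34.9, 38.7 and 53.3 CPM in wild-type replicates 1 to 3 and 23.1, 25.7 and 60.3 CPM in the knockout. Its level was thus highest in the libraries numbered 3 of both genotypes, an order shared by 4388 of all 14354 tested genes (30.6%). The inducible genes were lowest in these libraries, and a relation of their levels to that of hsf-1 was not tested. Of 7 tested genes of the list of HSF-1 and its regulators 0 were called. Their log2 fold changes were 2 above and 5 below 0, with a median of -0.14. For replicate 2, 0 of them reached 4-fold in both genotypes, which says little beside the 1.05% of all tested genes that did. The smallest p in this list belonged to the sirtuin gene sir-2.1 at -0.26 (SE 0.25), hsf-1 at -0.22 (SE 0.40) and ddl-2, a partner of the HSF-1 inhibitor hsb-1, at -0.17 (SE 0.43).

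Of the 18 constitutive HSP70, HSP90 and co-chaperone genes, 0 were highest in the libraries numbered 2 of both genotypes, beside 15.7% of all tested genes. The constitutive HSP70 gene hsp-1 had 1064, 1510 and 1883 CPM in the wild-type libraries and 1016, 1253 and 2025 CPM in the knockout. The HSP90 gene hsp-90 had 1595, 2179 and 2973 CPM and 1472, 1528 and 2990 CPM. In both genes the libraries numbered 3 were the highest, as they were in 30.6% of all tested genes and in the sum of the 8 germline markers. These markers summed to 1471, 2640 and 3689 CPM in the wild-type libraries and 1087, 1075 and 4046 CPM in the knockout. Not all genes of the list had this order. The gene unc-23 had 14.9, 14.0 and 13.1 CPM in the wild-type libraries and 17.3, 23.7 and 9.74 CPM in the knockout. Of the 18 genes of this list 3 were above 0 and 15 below, with a median of -0.09 and 0 called. The smallest p belonged to ahsa-1, an HSP90 activator, at -0.35 (SE 0.26), unc-23, a BAG-domain co-chaperone, at 0.27 (SE 0.33), and unc-45, a myosin chaperone, at -0.21 (SE 0.34).

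Chaperonin and prefoldin genes had 4 of 14 above 0 and 10 below, with a median of -0.12 and 0 called. The prefoldin genes pfd-4 and pfd-6 stood at 0.62 (SE 0.37) and 0.41 (SE 0.33), and the chaperonin gene cct-4 at -0.23 (SE 0.35). Of the other small heat shock genes, 7 of 9 were tested, 5 above and 2 below 0, with a median of 0.34 and 0 called. These included hsp-12.1 at 0.78 (SE 0.50), hsp-25 at 0.39 (SE 0.33) and hsp-43 at 0.36 (SE 0.33). In these 3 lists 0 genes reached 4-fold for replicate 2 in both genotypes, which says little beside the 1.05% of all tested genes that did. The highest ratio in any of these lists was 2.57, in the knockout.

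The genes nearest in profile to the hsp-16 genes were sought among 11229 other genes whose mean reached 1 CPM, by the root mean square difference of centred log2 CPM over the 6 libraries. They were C07B5.8 (0.48), K02E11.3 (0.51), C08F8.15 (0.53) and the transthyretin-related gene ttr-27 (0.61), against a median of 2.001 over these genes. Nearest to hsp-70 were the F-box genes fbxb-17 (0.56) and fbxb-91 (0.61), dct-13 (0.56) and F39F10.4 (0.61), against a median of 2.18. All 8 were highest in the libraries numbered 2 of both genotypes, which follows from their choice by likeness to profiles that peak there. For fbxb-91 the levels were 0.575, 7.08 and 0.420 CPM in the wild-type libraries and 0.635, 6.56 and 0.638 CPM in the knockout, close to those of hsp-70.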

How the data were processed

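The authors deposited 1 table of raw gene counts, made, per the file headers, by featureCounts 1.5.0 from read pairs in exons, using the reverse strand (setting 2) and Ensembl's WBcel235 annotation, and with no option to keep reads that match several places or genes. The submitters' processing notes also name HISAT2 2.1.0, bcl2fastq 2.19 and DESeq2 1.26.0. Per the labels' protocols, each library was built from 1 µg of RNA with a stranded kit. Exon lengths per gene, another column of the deposited table, served to scale levels per kb.

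Names and positions came from Ensembl 115 and RefSeq on the same assembly; 299 of 46748 genes had no entry. Genes were filtered with filterByExpr (minimum count 10, minimum total 15), scaled by TMM and tested with edgeR 4.0.16 in R 4.3.3 (estimateDisp, robust glmQLFit by the edgeR 4 method, glmQLFTest, no covariates) over 14354 genes with Benjamini-Hochberg adjustment. DESeq2 1.42.0 and limma 3.58.1 gave alternatives. Log2 CPM used a prior count of 2. Genes, lists and alternatives were chosen with earlier results of these data known. Named genes are the 12 members, the 3 with the smallest p of each of 4 lists, and the 4 nearest profiles of hsp-16 and of hsp-70; hsp-1, hsp-90, the neighbours, the single embryo and muscle markers and the genes of the closing section were named after their values were seen. The fits were also run on simulated counts, drawn with the dispersions of the blocked fit and with no difference between replicate numbers. That simulation does not show how the main fit behaves with replicate differences of the size seen here.

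The pairing by replicate number was checked first. After each group's mean was subtracted, same-numbered libraries correlated across genes with 0.65, 0.48 and 0.58. The number was therefore used for ratios within pairs and as a block in an alternative fit. The main fit did not use it. No 2 libraries agreed within sampling noise (smallest chi-square per degree of freedom 93.5). Sequences of the genes are not used here.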

Additional observations from a re-analysis of the deposited data

How the results depend on the processing

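None of the 12 genes was called under any alternative run, where DESeq2 gave 3 of them no adjusted p and the lowest edgeR adjusted p of any member was 0.253, without knockout replicate 3; edgeR's count over all genes was 0 except for 5 on library totals alone and 1 with the replicate block, while DESeq2 called 31. Of the members, 8 passed a filter of 1 CPM in 3 libraries. Directions were less steady, and the cause was not tested. On library totals alone the log2 fold changes were -0.36 for hsp-16.1, -0.18 for hsp-16.11, -0.52 for hsp-16.2, -0.055 for hsp-16.48, -0.0053 for hsp-16.49, -0.53 for hsp-70 and -0.0012 for hsp-12.6. With limma-voom they were -0.25 for hsp-16.1, -0.58 for hsp-16.2 and -0.25 for hsp-70, and with the replicate block hsp-16.2 was at -0.15; the block changed no call of the 12. Without the replicate 2 pair, an alternative chosen after seeing the data, hsp-16.2, hsp-16.48 and hsp-16.49 were at -0.50, -0.38 and -0.23. With 1 library left out at a time, values ran from -1.48 to 1.92 for hsp-16.1, -1.58 to 2.28 for hsp-16.11, -2.89 to 2.60 for hsp-16.2, -2.35 to 3.76 for hsp-16.41, -1.97 to 2.22 for hsp-16.48, -1.57 to 2.04 for hsp-16.49, -2.68 to 2.99 for hsp-70, -2.56 to 1.93 for F44E5.4, -2.13 to 1.87 for F44E5.5, -0.11 to 1.16 for hsp-12.3, 0.059 to 0.65 for hsp-12.6 and 0.13 to 0.78 for hsp-17. Outside the libraries numbered 2 the copies of hsp-16.1 and hsp-16.48 had at most 60 counts each, which limits every ratio among them.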

Other observations

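Genes other than the heat shock genes were also highest in the libraries numbered 2. Of the 151 genes at least 4-fold above the pooled replicates 1 and 3 in both genotypes, 142 were not among the 12, and 28 of them were fbxb genes, which encode F-box proteins, out of 53 fbxb genes tested. A further 5 were sdz genes, named for dependence on the maternal factor SKN-1 in the zygote, out of 21 tested. For fbxb-84 the levels were 0.464, 7.90 and 0.210 CPM in wild-type replicates 1 to 3 and 0.572, 17.4 and 1.01 CPM in the knockout. The gene ttn-1, which encodes a giant titin-like muscle protein, had 14.1, 136 and 17.8 CPM in the wild-type libraries and 14.7, 179 and 18.6 CPM in the knockout. These genes were picked after their values were seen.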
